A study of Bos taurus with 9 samples.

Results

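The expression of 10 mucin O-glycan and sialic acid genes (MUC1, GALNT3, GALNT7, C1GALT1, C1GALT1C1, GCNT1, GCNT3, B3GNT3, ST6GAL1 and CMAH) was examined in 3D-cultured bovine uterine glands, out of 20679 genes listed in the files. The genes were taken by symbol, and all 10 were found. The choice drew on the difference between cultures with and without EGF. Values and calls for that difference are therefore given as a description and are not read as a test. Uterine gland fragments, isolated with collagenase and picked by hand, were cultured for 5 days in Matrigel in a medium with insulin, transferrin, selenite, ascorbic acid and albumin, and RNA from 3 libraries per group was sequenced. The groups were cysts formed without EGF (CYST, labelled CONT_M), uterine gland-like structures formed with EGF in Matrigel alone (MAT, labelled EGF_M), and the same structures formed with EGF in Matrigel with collagen I (MAT + COL, labelled EGF_MCOL). The labels name no doses, and the study's methods give 5 ng/ml EGF for gland-like structures and 0.5 mg/ml collagen I. The uteri came from an abattoir at a luteal stage, and the fragments were a picked preparation rather than a cell line. The labels do not say whether the 3 libraries of a group came from separate animals, though the paper speaks of individuals for MAT and MAT + COL, so the tests measure the spread between these libraries only.

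Mucin-type O-glycans are built in the Golgi apparatus on serine and threonine residues of mucins such as MUC1. GalNAc-transferases add the first sugar, the core 1 synthase C1GALT1 adds galactose with the help of its chaperone C1GALT1C1, core 2 enzymes of the GCNT family add a branch, and enzymes such as B3GNT3 extend the chain. Sialyltransferases cap the chains with sialic acid, whose form depends on CMAH. In the uterus, heavily glycosylated mucins such as MUC1 line the apical surface of luminal and glandular epithelium, where they form part of the barrier between the epithelium and the lumen.

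Total counts per library ranged from 6568968 to 17948600, with medians of 9958018 in CYST, 12938664 in MAT and 17808510 in MAT + COL. The epithelial markers EPCAM, CDH1, KRT8, KRT18, KRT19, CLDN4 and ELF3 were all above 1 TPM (the level of a gene's transcripts scaled for gene length and depth) in every library, and the labels name the cells as epithelial. Their summed level was 17780 to 19160 TPM in CYST, 28390 to 44120 in MAT and 29330 to 39370 in MAT + COL, so it was higher in every EGF library than in every CYST library. KRT8 and KRT19 made up most of this sum. The test between MAT and CYST was run without and with the replicate number as a block, a term in the model for libraries with the same number. Without it 0 of the 7 markers passed, beside 1.79% of all genes called. With it 3 were called higher, beside 4.9% of all genes. Of the gland markers, PAX8 and ESR1 were present, FOXA2 was low (1.31 to 12.4 TPM) and SOX17 was below 1 TPM in every library. The 7 stromal markers summed to 1986 to 4486 TPM in CYST, 739 to 2946 in MAT and 1870 to 3439 in MAT + COL, and those groups overlapped. All 7 had a negative Log2FC between MAT and CYST (median -0.71), with 0 called without the block. With it 1, DCN, was called lower, beside 5.67% of all genes. The 6 leukocyte markers summed to at most 48.3 TPM in any library. The part of epithelial and stromal content in the differences below was not tested, and in bulk RNA fewer cells of a type and less RNA per cell cannot be told apart.

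**Figure D1:**
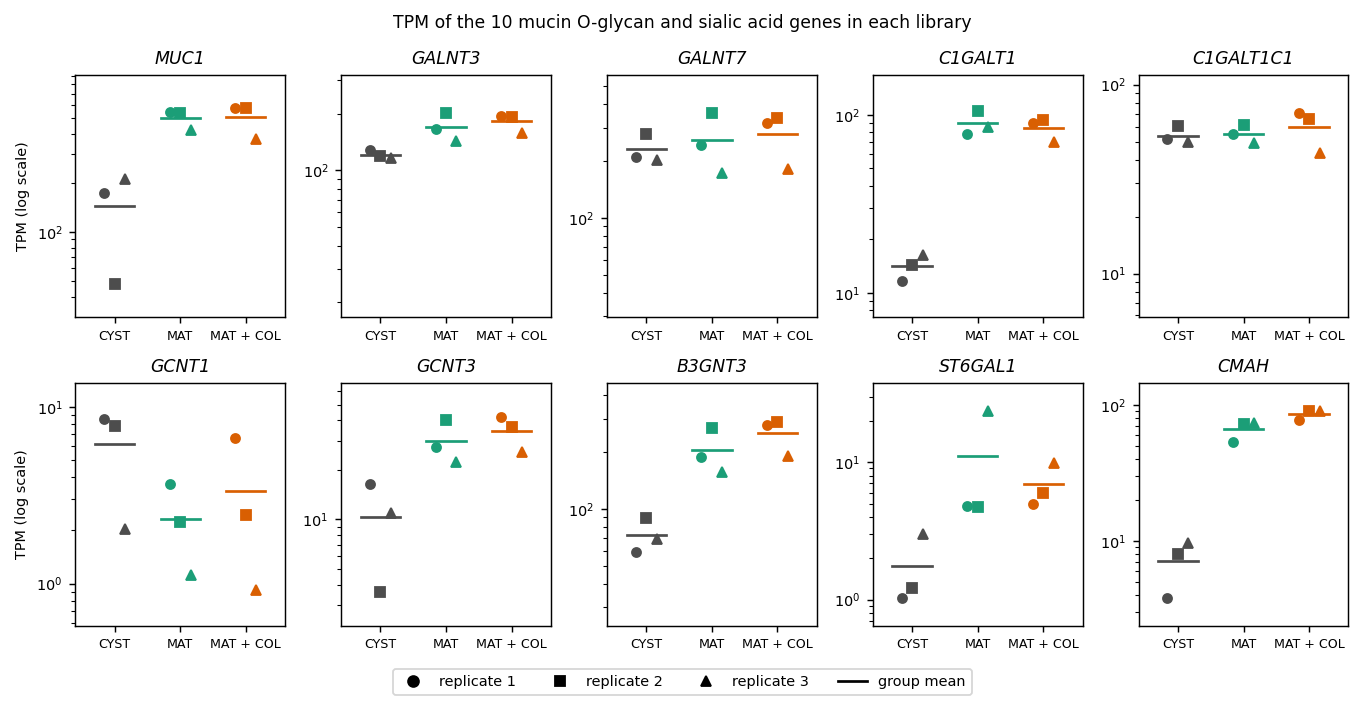
Level in TPM (log axis) of each of the 10 genes in the 9 libraries, by group, with the marker shape giving the replicate number and the line the group mean. MUC1, GALNT3, C1GALT1, GCNT3, B3GNT3, ST6GAL1 and CMAH were higher in all 3 MAT libraries than in all 3 CYST libraries, while GALNT7, C1GALT1C1 and GCNT1 overlapped.

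The first question was how these genes differed between gland-like structures and cysts. CMAH, C1GALT1, B3GNT3, MUC1, GCNT3, ST6GAL1 and GALNT3 were higher with EGF in every library, GCNT1 had a negative fold change, and GALNT7 and the chaperone C1GALT1C1 were near equal. The levels of 7 of the 10 genes did not overlap between MAT and CYST and were higher in MAT, beside 11.9% of all 12074 genes tested. The median Log2FC was 1.49 over the 10 genes and 0.01 over all genes tested. At an adjusted p under 0.05, 3 of the 10 genes were called higher and 0 lower (C1GALT1, B3GNT3 and CMAH), beside 1.79% of all genes called in either direction. With the replicate number as a block, 5 were called higher (these and MUC1 and ST6GAL1) and 1 lower (GCNT1), beside 4.9% of all genes called higher and 5.67% called lower (10.6% in all). Nothing is read from these counts, because the genes were chosen with this difference known.

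MUC1 (ENSBTAG00000017104, chr3:15427824-15432023 of ARS-UCD2.0), the transmembrane mucin that carries the O-glycans, was at 172, 48.1 and 209.8 TPM in CYST 1, 2 and 3, at 544, 538 and 423 TPM in MAT, and at 575, 575 and 368 TPM in MAT + COL. Every library with EGF was above every library without it, and CYST 2 stood far below the other CYST libraries. The mean level was 143 ± 84.6 TPM in CYST and 502 ± 68.4 TPM in MAT (SD, n = 3). MAT against CYST gave a Log2FC of 1.73 (standard error 0.53), and 2.01 (0.48) with the replicate block. Without CYST 2 the Log2FC was 1.33.

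The GalNAc-transferases GALNT3 and GALNT7 act at the start of the chain, GALNT3 on bare peptide and GALNT7 mainly on peptide that already carries GalNAc. GALNT3 (ENSBTAG00000013957, chr2:30517580-30570769) was at 128, 119.9 and 116 TPM in CYST, at 165, 201 and 144 TPM in MAT, and at 194, 193 and 159 TPM in MAT + COL. The groups with EGF did not overlap with CYST, but the difference was small, with a Log2FC of 0.47 (standard error 0.19) for MAT against CYST. GALNT7 (ENSBTAG00000016845, chr8:5591745-5727832) was at 209, 279 and 203 TPM in CYST, at 244, 358 and 173 TPM in MAT, and at 316, 338 and 182 TPM in MAT + COL. All 3 groups overlapped, and in MAT and MAT + COL replicate 3 was the lowest. The Log2FC of GALNT7 was 0.15 (standard error 0.27), and it was lower in MAT than in CYST in replicate 3 and higher in the other pairs. GALNT7 overlaps 2 long noncoding RNA genes of RefSeq, whose reads may be shared.

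GALNT7, GALNT6 and GALNT3 held most of the GalNAc-transferase RNA. The 19 family members found summed to 598 ± 31.8 TPM in CYST, 779 ± 129.5 TPM in MAT and 833 ± 113.8 TPM in MAT + COL (SD, n = 3). GALNT7 took 38.4% ± 4.89 of this sum in CYST, 32.5% ± 6.47 in MAT and 32.9% ± 6.13 in MAT + COL. GALNT3 took 20.3% ± 1.5, 21.8% ± 0.107 and 21.9% ± 0.731. GALNT3 thus had a similar share of its family in all 3 groups, while the family total was higher in every library with EGF. The share of GALNT11, in contrast, was 3.78% ± 0.0914 in CYST and 1.82% ± 0.277 in MAT. GALNT11 was picked after its values were seen, and its own Log2FC of -0.71 (standard error 0.21) did not pass the test (adjusted p = 0.108, edgeR).

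The core 1 synthase was higher with EGF, while the level of its chaperone differed by less than the spread between libraries. C1GALT1 (ENSBTAG00000004995, chr4:15276560-15325096) was at 11.8, 14.4 and 16.4 TPM in CYST, at 78.4, 105 and 85.9 TPM in MAT, and at 89.9, 93.1 and 70.8 TPM in MAT + COL. The highest CYST library was thus far below the lowest library with EGF. The Log2FC of MAT against CYST was 2.63 (standard error 0.25), a 6.18-fold difference. C1GALT1C1 (ENSBTAG00000021410, chrX:5170113-5176087, minus strand), without which the synthase does not fold into an active enzyme, was at 51.7, 60.1 and 49.5 TPM in CYST, at 54.9, 61.4 and 48.9 TPM in MAT, and at 70.7, 65.9 and 43.5 TPM in MAT + COL. All 3 groups overlapped, and the Log2FC of MAT against CYST was 0.02 with a 95% interval of -0.36 to 0.40. The ratio of the TPM of C1GALT1 to that of C1GALT1C1 was 0.227, 0.24 and 0.331 in CYST, 1.43, 1.71 and 1.76 in MAT, and 1.27, 1.41 and 1.63 in MAT + COL. The chaperone was therefore the more abundant transcript of the pair in every CYST library and the less abundant in every library with EGF. The gene model counted for C1GALT1C1 spans 5975 bp, against 4051 bp in RefSeq, so which of the pair is more abundant may depend on the model.

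For the core 2 enzymes, the fold changes had opposite signs. GCNT1 (ENSBTAG00000012757, chr8:52514993-52574356), which adds the core 2 branch, was at 8.51, 7.83 and 2.05 TPM in CYST, at 3.65, 2.23 and 1.11 TPM in MAT, and at 6.70, 2.45 and 0.923 TPM in MAT + COL. The groups overlapped, but replicate 3 was the lowest of each group, and MAT was below CYST in 3 of 3 same-numbered pairs. MAT against CYST gave a Log2FC of -1.37 (standard error 0.53), and -1.33 (0.23) with the replicate block. GCNT3 (ENSBTAG00000009443, chr10:50631919-50788122, minus strand), a mucin-type enzyme that makes core 2 and core 4 branches, was at 16.5, 3.61 and 11.01 TPM in CYST, at 27.7, 40.1 and 22.5 TPM in MAT, and at 42.1, 36.5 and 25.6 TPM in MAT + COL. All libraries with EGF were above all CYST libraries, and CYST 2 was again the lowest, as for MUC1. MAT against CYST gave a Log2FC of 1.499 (standard error 0.52), and 1.11 without CYST 2. The gene model of GCNT3 in the files spans 156204 bp, against 5165 bp in RefSeq on the same assembly, so reads from outside the RefSeq gene may have been counted.

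Of the summed TPM of both core 2 genes, GCNT1 made up 34.1%, 68.4% and 15.7% in CYST, 11.6%, 5.27% and 4.73% in MAT, and 13.7%, 6.29% and 3.49% in MAT + COL. GCNT1 was the larger part only in CYST 2, and its share was lower in every library with EGF than in every CYST library. These shares rest on the wide gene model of GCNT3 described above. The sum of both genes was 16.5 ± 7.40 TPM in CYST, 32.4 ± 9.41 TPM in MAT and 38.1 ± 11.2 TPM in MAT + COL (SD, n = 3).

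**Figure D2:**
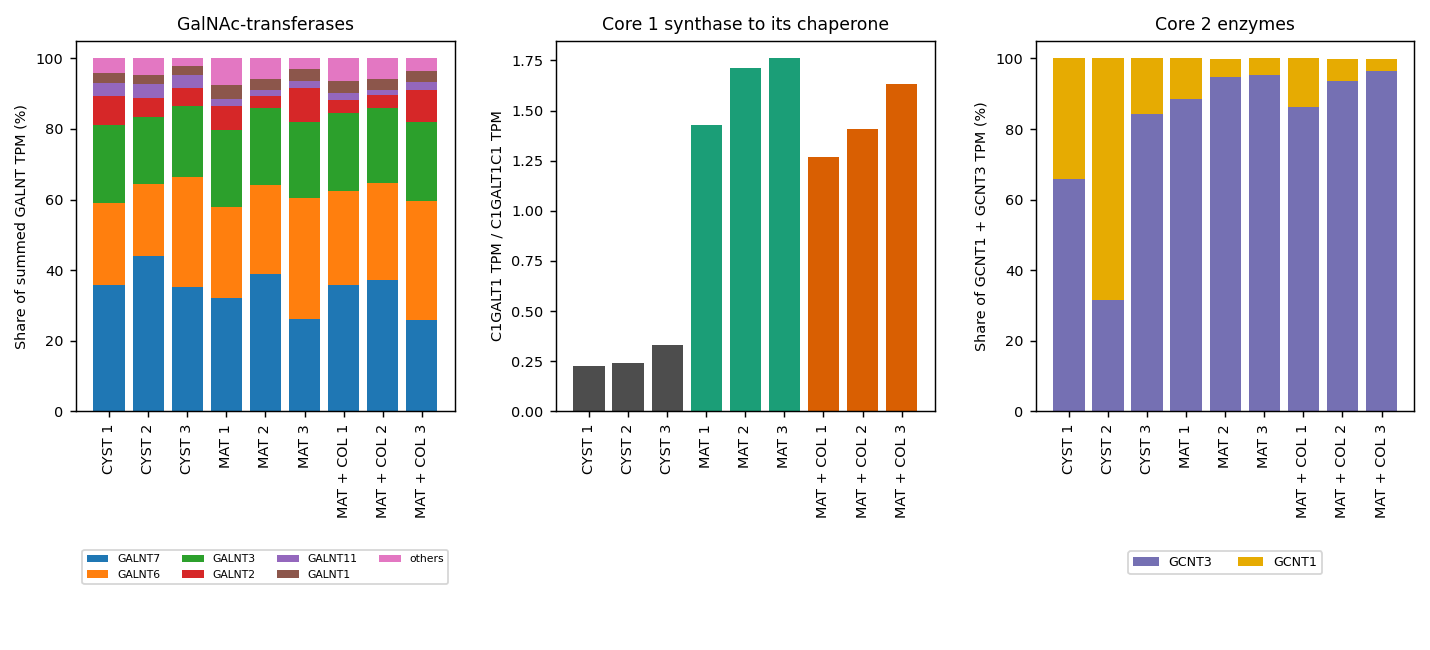
Share of each GalNAc-transferase in the summed TPM of its family (left, %), TPM of C1GALT1 divided by TPM of C1GALT1C1 (middle), and shares of GCNT1 and GCNT3 in their sum (right, %), in each of the 9 libraries. The core 1 ratio was at most 0.331 in CYST and at least 1.27 with EGF, and the share of GCNT1 was 15.7% to 68.4% in CYST and 3.49% to 13.7% with EGF.

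B3GNT3 (ENSBTAG00000046750, chr7:5344443-5364373, minus strand), which adds N-acetylglucosamine to core 1 chains and so starts their extension, was at 59.3, 89.5 and 69.4 TPM in CYST, at 187, 268 and 157 TPM in MAT, and at 279, 288 and 189 TPM in MAT + COL. The groups with EGF did not overlap with CYST, and replicate 2 was the highest of each group. The Log2FC of MAT against CYST was 1.47 (standard error 0.25), a 2.77-fold difference.

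ST6GAL1 (ENSBTAG00000010357, chr1:80197123-80239505, minus strand), which links sialic acid to galactose mainly on N-glycans, had the lowest mean level of the 10 genes in CYST, with a range that overlapped that of GCNT1. Its counts were 11, 25 and 41 in CYST, 40, 105 and 388 in MAT, and 106, 131 and 205 in MAT + COL. The corresponding levels were 1.03, 1.21 and 2.99 TPM, then 4.84, 4.76 and 23.4 TPM, and then 4.97, 5.95 and 9.88 TPM. Every library with EGF was above every CYST library, replicate 3 was the highest of each group, and MAT 3 stood far above the rest. The Log2FC of MAT against CYST was 2.61 (standard error 0.82), and 2.39 (0.36) with the replicate block. Without MAT 3 the Log2FC was 1.35. ST6GAL1 took 0.756% ± 0.733 of the summed TPM of 20 sialyltransferases in CYST and 3.97% ± 4.42 in MAT, while that sum was 287 ± 89.9 TPM in CYST and 312 ± 48.3 TPM in MAT (SD, n = 3). It overlaps a long noncoding RNA gene of RefSeq, LOC100847189, whose reads may be shared.

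CMAH (ENSBTAG00000003892, chr23:32697165-32755478), the hydroxylase that turns CMP-N-acetylneuraminic acid into CMP-N-glycolylneuraminic acid, had the largest Log2FC of the 10 genes. It was at 3.79, 7.97 and 9.59 TPM in CYST, at 53.6, 73.0 and 73.5 TPM in MAT, and at 77.8, 90.7 and 90.3 TPM in MAT + COL. The groups did not overlap, and CYST 1 was the lowest library. The Log2FC of MAT against CYST was 3.18 (standard error 0.40), with a ratio of mean TPM of 9.37. The gene model counted for CMAH spans 58314 bp, against 82941 bp in RefSeq on the same assembly, so its level beside other genes may depend on the model.

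The order of levels also differed between the groups. In CYST, GALNT7 (230 ± 42.2 TPM), MUC1 and GALNT3 (121 ± 6.12 TPM) led, with overlapping ranges between neighbours, and C1GALT1, GCNT3, CMAH, GCNT1 and ST6GAL1 followed at group means of 14.2 TPM or less. In MAT, MUC1 led without overlapping GALNT7 (258 ± 93.6 TPM), followed by B3GNT3 (204 ± 57.1 TPM) and GALNT3 (170 ± 29.1 TPM), and each neighbour in that row overlapped with the next. C1GALT1 (89.8 ± 13.8 TPM) and CMAH (66.7 ± 11.3 TPM) ranked above C1GALT1C1 (55.1 ± 6.23 TPM) in MAT, whereas both ranked below it in CYST. The ranges of CMAH and C1GALT1C1 overlapped in MAT, and those of C1GALT1 and CMAH did not. Among all genes tested, the mean level of MUC1 was at percentile 90.2 in CYST and 98 in MAT, and that of CMAH at percentile 32.8 and 80.1. GCNT1 went from percentile 30.3 to 14.7.

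The next question was whether collagen I changed these genes in gland-like structures. This comparison did not enter the choice of the genes and was tested. At an adjusted p under 0.05, 0 of the 10 genes were called by edgeR, beside 0% of all 12470 genes, and 0 of the 10 had an unadjusted p under 0.05, beside 0.409% of all genes. The median Log2FC of MAT + COL against MAT was 0.03 over the 10 genes. With the replicate block 0 of the 10 were called as well and 1 had an unadjusted p under 0.05, beside 4.96% of all genes. DESeq2 and limma also called 0 genes.

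The gene with the smallest p was CMAH, which was higher in all 3 MAT + COL libraries than in all 3 MAT libraries, as were 2.75% of all genes. Its mean level was 66.7 ± 11.3 TPM in MAT and 86.3 ± 7.33 TPM in MAT + COL (SD, n = 3). The Log2FC was 0.29 (standard error 0.20), with a 95% interval of -0.19 to 0.78 and an adjusted p of 1 from edgeR. With the replicate block the Log2FC was 0.30 (95% interval 0.06 to 0.55). The adjusted p from edgeR was then 0.955, so the difference did not pass the correction. B3GNT3 was also higher with collagen I in 3 of 3 same-numbered pairs, with overlapping groups. Its Log2FC was 0.23 (95% interval -0.31 to 0.76), with an adjusted p of 1 from edgeR. With the replicate block its interval was -0.02 to 0.49, which also included 0.

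The other 8 genes had an adjusted p of 1 and overlapping groups. MUC1 had a Log2FC of -0.07 (95% interval -0.52 to 0.38) and C1GALT1 of -0.17 (-0.57 to 0.24). GALNT3 had a Log2FC of 0.02 (-0.36 to 0.39) and C1GALT1C1 of 0.04 (-0.38 to 0.46). These 4 genes differed by less than the spread between libraries, and differences within these intervals were not excluded. With the replicate block the intervals were -0.33 to 0.16 for MUC1 and -0.42 to 0.10 for C1GALT1. They were -0.22 to 0.27 for GALNT3 and -0.26 to 0.30 for C1GALT1C1. GCNT3 had a Log2FC of 0.12 (-0.43 to 0.68) and GALNT7 of 0.03 (-0.67 to 0.73). Their intervals with the replicate block were -0.17 to 0.44 and -0.21 to 0.30. The intervals without the block were wide for the low genes GCNT1 (0.42, from -1.15 to 2.00) and ST6GAL1 (-0.77, from -2.46 to 0.91). They did not exclude a change of several fold. Narrower intervals came with the replicate block, at -0.30 to 0.69 for GCNT1 and -1.11 to 0.29 for ST6GAL1, and these also included 0. For ST6GAL1 the sign rested on MAT 3, and without it the Log2FC was 0.50.

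**Figure D3:**
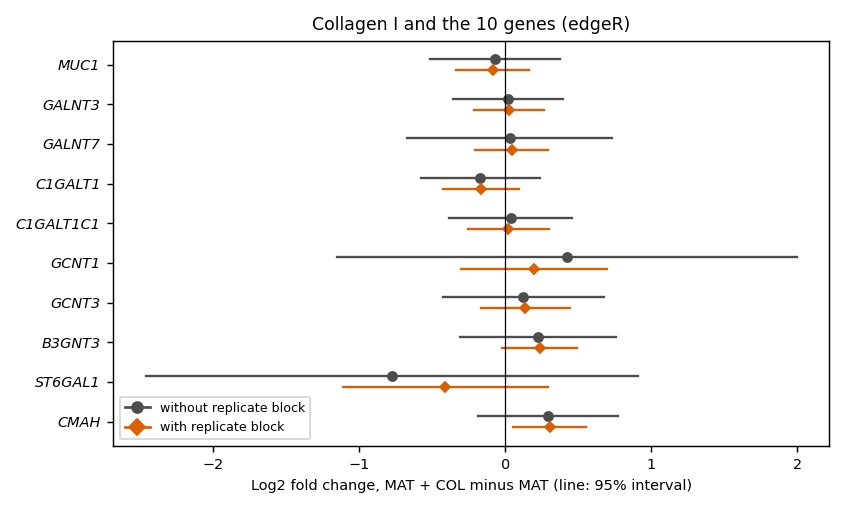
Log2FC of MAT + COL against MAT from edgeR for each of the 10 genes, without and with the replicate number as a block, where lines are 95% intervals. All intervals without the block include 0, and with the block only that of CMAH does not.

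MAT + COL was also set against the same CYST libraries, so the values below are not independent of those for MAT and are given side by side as a description. The Log2FC against CYST of MAT and of MAT + COL was 1.73 and 1.68 for MUC1, 0.47 and 0.51 for GALNT3, and 0.15 and 0.20 for GALNT7. It was 2.63 and 2.48 for C1GALT1, 0.02 and 0.08 for C1GALT1C1, -1.37 and -0.93 for GCNT1, and 1.499 and 1.65 for GCNT3. For B3GNT3 it was 1.47 and 1.72, for ST6GAL1 2.61 and 1.88, and for CMAH 3.18 and 3.50. The same 7 genes as in MAT were higher in every MAT + COL library than in every CYST library, beside 14.3% of all 12509 genes tested. C1GALT1, B3GNT3 and CMAH were called, 3 of 10 beside 1.49% of all genes, and ST6GAL1 as well with the replicate block (Log2FC 2.01), beside 2.68% of all genes called higher (5.26% in all). As for MAT, nothing is read from these counts. The median Log2FC of the 10 genes was 1.66, beside 0.04 over all genes.

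The rest of the pathway was given by 8 lists by role, with 109 further genes, of which 97 were found under their symbol. The lists were made with earlier results of these data known. Their calls against CYST, here and below, are therefore not independent support, and nothing is read from their counts. Between MAT and CYST, 67 passed the filter on low counts, and 3 rose and 1 fell (edgeR, adjusted p under 0.05), beside 0.845% of all genes called higher and 0.944% called lower. Their median Log2FC was 0.17. With the replicate block 10 rose and 2 fell, beside 4.9% and 5.67% of all genes. None of the 4 calls held when CYST 1, CYST 2, MAT 1 or MAT 2 was left out, where 0 of the listed genes were called. Over all genes, 7, 5, 9 and 32 were then called, in that order, against 216 with all libraries. The calls of CHST4 and SIAE were also lost without MAT 3, where 122 of all genes were called. Without each library in turn the Log2FC was 2.79 to 3.44 for MUC13 and 3.55 to 4.47 for CHST4. It was 1.17 to 1.52 for SIAE and -3.36 to -2.51 for NPL.

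Among mucins, MUC13, a transmembrane mucin of mucosal epithelium, rose from 15.0, 24.7 and 32.2 TPM in CYST to 168, 229 and 211 TPM in MAT, a Log2FC of 3.03 (standard error 0.36; edgeR, adjusted p = 0.0216). It was at 193, 254 and 159 TPM in MAT + COL, with a Log2FC of 2.96 against CYST (adjusted p = 0.0268, edgeR). MUC4, another transmembrane mucin, had counts of 9, 2 and 11 in CYST, 47, 324 and 103 in MAT, and 212, 429 and 163 in MAT + COL. It missed the threshold in MAT (Log2FC 3.93, adjusted p = 0.0558; 0.0311 with the replicate block) and rose in MAT + COL (Log2FC 4.38, adjusted p = 0.0473, edgeR). The most abundant of the mucin list were CD164, a sialomucin of endosomes and the cell surface, and MUC20. MUC20 was at 382, 178 and 423 TPM in CYST and 890, 968 and 668 TPM in MAT, with CYST 2 lowest as for MUC1, and its Log2FC of 1.299 did not pass the test (adjusted p = 0.108; 0.0468 with the replicate block). CD164 was at 595 to 710 TPM in CYST and 724 to 1066 TPM in MAT (Log2FC 0.37, adjusted p = 0.371). PODXL, a sialomucin named after its values were seen, was at 13.7 to 41.4 TPM in CYST, 4.23 to 11.2 TPM in MAT and 3.09 to 9.58 TPM in MAT + COL. It was lower in every library with EGF than in every CYST library, with a Log2FC of -1.62 for MAT (adjusted p = 0.129, or 0.0449 with the replicate block, edgeR) and -2.18 for MAT + COL (adjusted p = 0.105, edgeR).

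Of the other GalNAc-transferases, 0 of the 11 tested passed the test in MAT against CYST. GALNT6, which exceeded GALNT3 in each group, was at 135, 130.3 and 179 TPM in CYST and 194, 229 and 226 TPM in MAT (Log2FC 0.50, adjusted p = 0.3). GALNT2 was at a Log2FC of 0.40 (adjusted p = 0.469). In core synthesis, the core 2 enzyme GCNT4 was at most 1.65 TPM in any library, and the core 3 enzyme B3GNT6 was below 1 TPM throughout. With its wide gene model, GCNT3 was thus the leading core 2 transcript with EGF.

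Of the extension and capping genes, 1 of 17 passed the test. CHST4, which sulfates N-acetylglucosamine, rose from 0.351, 0.579 and 0.763 TPM in CYST to 3.16, 10.8 and 14.02 TPM in MAT (Log2FC 4.004, standard error 0.67, adjusted p = 0.0401, edgeR). The most abundant were GGTA1 and B4GALT1, both galactosyltransferases, which had Log2FC values of -0.13 and 0.28 (adjusted p = 0.713 and 0.399). With the replicate block FUT2, B3GNT8 and B4GALNT2 were called higher too, at Log2FC values of 0.96, 1.22 and 1.23. These, like GALNT5 (2.26 with the block), were named after their values were seen.

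Of the 12 other sialyltransferases tested, 0 passed without the block. ST6GALNAC2 and ST3GAL4 were the most abundant, with Log2FC values of 0.39 and -0.07 (adjusted p = 0.362 and 0.945). ST6GALNAC3, named after its values were seen, showed the largest differences between replicate numbers, with 6.13, 30.4 and 0.194 TPM in CYST, 37.3, 87.5 and 3.86 TPM in MAT, and from 7.37 to 80.7 TPM in MAT + COL. Replicate 3 was the lowest of each group for ST6GALNAC3 and the highest for ST6GAL1. ST6GALNAC3 was higher in MAT in 3 of 3 pairs and was called only with the block (Log2FC 2.35, adjusted p = 0.0134, edgeR).

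Of the 6 genes listed with CMAH that make, activate, transport or modify sialic acid, 0 passed the test, and the most abundant, CMAS and NANS, had Log2FC values of 0.43 and -0.14 (adjusted p = 0.245 and 0.719). Of 5 tested genes that remove or break down sialic acid, NPL, the lyase that cleaves free sialic acid, fell from 15.7, 15.7 and 24.1 TPM in CYST to 1.55, 2.18 and 3.87 TPM in MAT (Log2FC -2.89, standard error 0.46, adjusted p = 0.0349, edgeR). SIAE, an esterase that removes O-acetyl groups from sialic acid, rose from 13.9, 13.5 and 15.8 TPM to 36.2, 45.2 and 29.7 TPM (Log2FC 1.33, standard error 0.26, adjusted p = 0.0482, edgeR). The sialidase NEU1 and RENBP had Log2FC values of 0.0085 and -0.15 (adjusted p = 0.986 and 0.757). Of the 9 donor sugar genes tested, 0 passed, with UAP1 at -0.11 and UGP2 at 0.28 (adjusted p = 0.806 and 0.627).

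In MAT + COL against MAT, 0 of the 70 listed genes tested were called by edgeR. An unadjusted p under 0.05 was seen for 1, beside 0.409% of all genes. In MAT + COL against CYST, MUC13, MUC4 and CHST4 rose and NPL fell among 69 genes tested, beside 0.672% of all genes called higher and 0.815% called lower. With the replicate block 6 rose and 2 fell, beside 2.68% of all genes called higher and 5.26% called in either direction. The genes that fell were NPL and GNPNAT1, an enzyme of UDP-N-acetylglucosamine supply named after its values were seen (Log2FC -0.75). Of the calls without the block, 0 held when CYST 1, CYST 2 or MAT + COL 2 was left out. Only that of MUC13 held without CYST 3, and only that of CHST4 without MAT + COL 1. Those of MUC13 and NPL held without MAT + COL 3. Over all genes, 3 to 186 were called without each library in turn, against 186 with all libraries. With all libraries NPL had a Log2FC of -2.19 (adjusted p = 0.0431, edgeR), and SIAE missed the threshold (Log2FC 1.41, adjusted p = 0.0579).

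**Figure D4:**
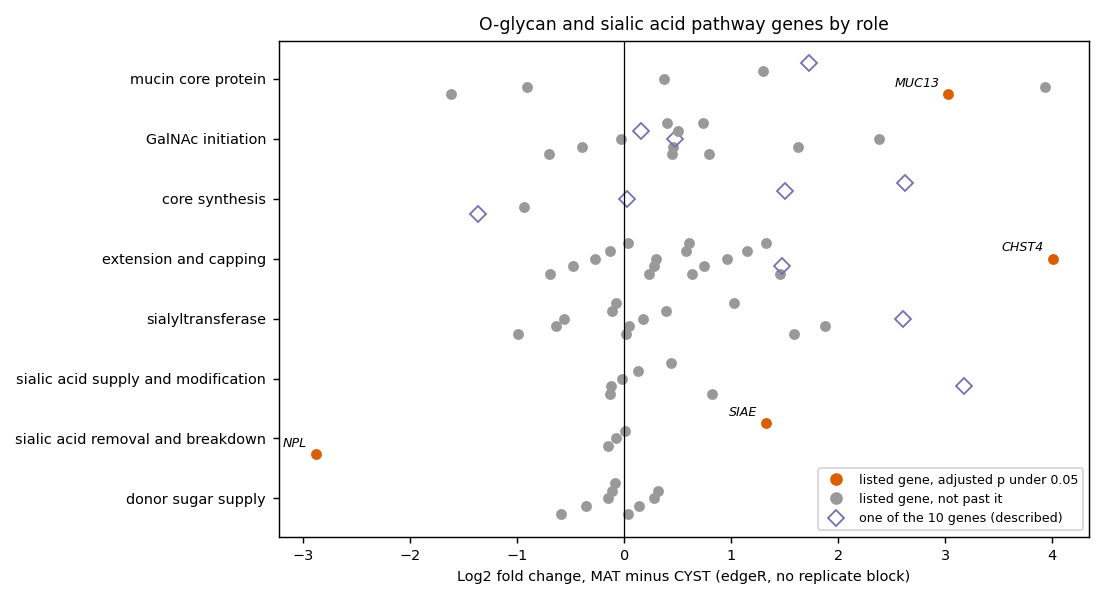
Log2FC of MAT against CYST (edgeR, without the replicate block) for each gene tested of the 8 role lists, with filled points for listed genes and open diamonds for the 10 genes, which are described without a test. MUC13, CHST4 and SIAE rose and NPL fell, and C1GALT1, ST6GAL1 and CMAH lie to the right of the other genes tested of their lists. The 10 genes were chosen with this difference known, so nothing is read from their place.

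Genes with the pattern most like MUC1, C1GALT1 and CMAH were sought among 12858 genes, as those with the smallest root-mean-square difference of centred log2 CPM (counts scaled to library size) over the 9 libraries. For MUC1 these were GCNT3 (0.286), MUC20 (0.361) and C1QTNF12 (0.375), where the median gene was at 1.22. GCNT3, itself among the 10 genes, was thus the gene nearest to MUC1, and all 3 had their lowest TPM in CYST 2. The distance includes the difference with EGF on which the 10 genes were chosen. Nearness among them is therefore partly built in, and nothing is read from it. C1QTNF12 had at most 45 counts in any library. For C1GALT1 these were PAQR6 (0.224), ENPP3 (0.252) and CD109 (0.269), where the median was 1.31. PAQR6 was at 24.7 ± 3.46 TPM in CYST and 131.8 ± 9.90 TPM in MAT, and CD109 at 13.1 ± 2.81 and 61.2 ± 7.62 TPM (SD, n = 3). For CMAH they were MUC13 (0.307), ENPP3 (0.41) and HPCA (0.465), where the median was 1.73. ENPP3, which was near to both C1GALT1 and CMAH, was at 23.5 ± 8.52 TPM in CYST, 136.9 ± 21.3 TPM in MAT and 179 ± 17.1 TPM in MAT + COL.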

How the data were processed

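RNA was sequenced from 9 libraries of 3D-cultured uterine gland fragments (3 groups, day 5 of culture). The authors aligned trimmed reads to ARS-UCD2.0 in CLC Genomics Workbench 25.0.1 with default parameters, and deposited counts per gene, without normalization, and TPM values of the same 20679 genes. The annotation release and the strand setting are not given in the sources used here. All per-sample columns were used.

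Groups and replicate numbers came from the sample titles. The column headers of the deposited values carry other numbers for several libraries, and the sample descriptions tie each header to its title. For each comparison, edgeR 4.0.16 (R 4.3.3) was run on the 6 libraries concerned. It used TMM factors, filterByExpr with a minimum count of 10, and the two-sided quasi-likelihood test (glmQLFit, glmQLFTest), with Benjamini-Hochberg adjustment over all genes tested and a threshold of 0.05. The script was tested on simulated data. Log2FC is the edgeR value, levels are deposited TPM, and the difference in each pair used log2(TPM + 1). Reads carried no molecular identifiers. After the group means were subtracted, libraries with the same number correlated across genes in every comparison (0.279 to 0.69), and those with different numbers at most at 0.112, so the numbers were taken to pair the libraries. This rests on the data: the labels do not tie numbers to animals, and the paper speaks of individuals for the MAT and MAT + COL libraries without numbering them.

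The 10 genes and the lists were chosen with earlier results of these data known. By rule, the text named these 10, the other listed genes called in any fit without the block, the 2 most abundant others of each role list, and the 3 nearest genes to MUC1, C1GALT1 and CMAH. Genes named outside this rule are marked. The listed mucins MUC3A, MUC5AC, MUC5B, MUC6, MUC7, MUC12, MUC16, MUC17, MUC19 and MUC21, and GALNT4 and FUT7, had no row under that symbol and were not analysed here. RefSeq positions on ARS-UCD2.0 were used to look for overlapping genes. Alternatives were the replicate number as a block, DESeq2 1.42.0, limma 3.58.1 on log2(TPM + 1), RLE size factors, keeping genes of low count, fitting all 9 libraries together, a pseudocount of 0.1 on TPM, and dropping each library in turn. Plots were made in Python 3.11.15 (matplotlib 3.10.9).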

Additional observations from a re-analysis of the deposited data

How the results depend on the processing

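Between MAT and CYST, 216 genes were called in all and 4 of the other listed genes. These counts were 1278 and 13 with DESeq2, 1277 and 12 with the replicate block, 580 and 7 with all 9 libraries in the fit, and 5 to 267 and 0 to 5 without each library in turn. Between MAT + COL and CYST they were 186 and 4, against 1500 and 14 with DESeq2, 658 and 8 with the replicate block, 601 genes with all 9 libraries, and 3 to 186 and 0 to 4 without each library in turn. The cause was not tested. Between MAT + COL and MAT they were 0 under every alternative. Calls of the 10 genes against CYST are a description only, because the genes were chosen with that difference known. The calls of C1GALT1, B3GNT3 and CMAH between MAT and CYST were all lost without CYST 1 or CYST 2. Those of B3GNT3 and CMAH were lost without MAT 1 or MAT 2, and that of B3GNT3 without CYST 3. Without each library in turn, the Log2FC of C1GALT1, B3GNT3 and CMAH was 2.51 to 2.87, 1.24 to 1.61 and 2.89 to 3.59. For MAT + COL against CYST, C1GALT1 and B3GNT3 lost their calls without CYST 1, and all 3 without CYST 2, MAT + COL 1 or MAT + COL 2. Apart from the calls of MUC1, GCNT1 and ST6GAL1 given above, and those of other listed genes, the replicate block changed no call of the 10 genes.

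The sign was followed for the 10 genes and for CHST4, MUC13, MUC4, NPL and SIAE. Among these it changed only when a library was left out, and not for a gene called in that comparison. Other listed genes could change sign with the replicate block, as ST3GAL4 did between MAT and CYST (Log2FC -0.07 without it, 0.10 with it). Between MAT and CYST the range was -0.15 to 0.36 for GALNT7 and -0.055 to 0.087 for C1GALT1C1, and between MAT + COL and CYST it was -0.024 to 0.23 for C1GALT1C1. Between MAT + COL and MAT it was -0.18 to 0.086 for MUC1, -0.067 to 0.15 for GALNT3, -0.17 to 0.34 for GALNT7, -0.047 to 0.20 for C1GALT1C1, -0.48 to 0.86 for GCNT1, -0.030 to 0.38 for GCNT3 and -1.15 to 0.50 for ST6GAL1. It was -0.30 to 0.031 for MUC13, -0.084 to 0.98 for MUC4 and -0.18 to 0.26 for SIAE. RLE size factors, no filter and limma kept the sign of each of the 10 genes. Counts were low for ST6GAL1, as few as 11 in a library, and depth and the spread between libraries both limit its values.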

Other observations

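N-glycan branching, which supplies the chains that ST6GAL1 caps, was listed with 11 genes, and all 11 were tested. The median Log2FC of MAT against CYST was 0.36, the sign was positive for 8 of 11, and 0 passed the test with edgeR. Without the block 1.79% of all genes were called. The replicate block gave 2 calls, both higher, beside 4.9% of all genes called higher. MAN2A2, a Golgi mannosidase, was at 6.61 to 10.8 TPM in CYST and 16.4 to 22.6 TPM in MAT, with a Log2FC of 1.09 (adjusted p = 0.0559, or 0.0301 with the block, edgeR). MGAT3, which adds the bisecting N-acetylglucosamine, was at 1.46 to 5.18 TPM in CYST and 4.54 to 15.9 TPM in MAT, with overlapping groups and a Log2FC of 1.72 (adjusted p = 0.214, or 0.0134 with the block, edgeR). MAN2A2 and MGAT3 were named after their values were seen. Between MAT + COL and MAT, 0 of 11 were called with edgeR, and 0 had an unadjusted p under 0.05.

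A list held 10 genes commonly induced by EGF signalling (DUSP4, DUSP5, DUSP6, SPRY2, SPRY4, ETV4, ETV5, EGR1, FOSL1 and PHLDA1). Of these, 0 were called between MAT and CYST by edgeR, and the median Log2FC was 0.08. Without the block 1.79% of all genes were called. A single gene was called lower when the replicate number was a block, beside 5.67% of all genes. This was FOSL1, at 7.42 to 26.8 TPM in CYST and 2.44 to 5.96 TPM in MAT (Log2FC -2.09, adjusted p = 0.131, or 0.0173 with the block, edgeR). DUSP4 went the other way. It was at 0.448 to 1.88 TPM in CYST and 2.13 to 5.70 TPM in MAT (Log2FC 1.68, adjusted p = 0.207, or 0.155 with the block, edgeR). FOSL1 and DUSP4 were named after their values were seen.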
